A study of Mus musculus with 16 samples.

Results

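The 9 genes described here, Cd68, Msr1, Axl, Mertk, Cd36, Mrc1, Fcgr2b, Fcgr3 and Fcer1g, code for receptors and receptor subunits through which phagocytes bind and take up particles. They were picked by name, and all 9 were found among the 55487 gene symbols of the deposited count matrix, of which 41193 had a count. Their levels were followed over the 17 clusters of cells that the authors defined and over the time after a spinal cord lesion.

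Spinal cord cells of 16 mice, each with its own droplet-based 3′ library, had been collected from mice without injury or 1 d, 7 d or 14 d after the dorsal columns were cut at a cervical level. The control mice carried Ryk+/+ with GFAPcreERT2 (called WT here), and the conditional knockout mice carried Rykfl/fl with GFAPcreERT2 (called cKO), with 2 mice per genotype and time. The Cre recombinase is under a human GFAP promoter and acts after tamoxifen, which both genotypes received, so the deletion was aimed at astrocytes and not at the phagocytes themselves. The mice were 8 to 10 weeks old, and those given as sham in the sample labels are given as uninjured in the paper.

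The matrix held 18203 cells. Unique molecular identifiers (UMIs, each counted as a captured RNA molecule) numbered 536263 to 9008729 per mouse in 15 mice. In WT 1 d replicate 2 a single cell with 266 UMIs was left, so WT at 1 d rests on 1 mouse, assumed to vary like the mice of other groups. The 4 shallowest mice were the first replicates taken 1 d and 7 d after the lesion in either genotype, with a median of 414 to 548 UMIs per cell, against 1040.5 to 3637 in the other 11. The names of the cells give a condition other than the sample title for 6 mice, all of them replicate 2. Conditions were taken from the titles, and the values under the cell names are given beside the calls in Clusters 6 and 10 as 1 class. A barcode occurred in more than 1 mouse for 432 cells, 57 of them among the 2129 cells of Clusters 6 and 10 and 14 among the 288 immune cells.

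Ryk, the deleted gene, was counted in all 15 mice in Clusters 2, 5 and 7, the authors' astrocytes. Levels are given as CPM, the UMIs of a gene relative to all UMIs of the same cells. Uninjured mice had 123 and 54.0 CPM of Ryk in WT replicates 1 and 2 and 66.1 and 85.1 CPM in cKO. Injured WT mice had 101 CPM at 1 d, 157 and 116 CPM at 7 d and 105 and 108 CPM at 14 d. Injured cKO mice had 23.0 and 69.0 CPM at 1 d, 90.1 and 119 CPM at 7 d and 121 and 123 CPM at 14 d. The ranges of the genotypes overlapped, and since the 3′ ends that were read need not fall in the deleted stretch, these counts do not check the labels.

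Phagocytes recognise their targets through receptors of several families. Scavenger receptors bind modified lipoproteins, lipids and sugars, the TAM receptor tyrosine kinases bind phosphatidylserine of dying cells through bridging proteins, and Fc receptors bind targets coated with antibody. In the spinal cord, microglia are the resident phagocytes, and monocyte-derived cells enter after a lesion.

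Among the Fc receptors, Fcer1g codes for the common gamma chain that activating Fc receptors need for signalling, Fcgr3 for an activating receptor of IgG, and Fcgr2b for the inhibitory receptor of IgG. Fcer1g had its highest mean level in Cluster 10 (annotated as microglial), at 2426 ± 804 CPM (SD, n = 14 mice). It was followed by Cluster 16 (annotated as myeloid) with 1918 ± 753 CPM (n = 5), the immune cells of Cluster 12 with 1862 ± 889 CPM (n = 10) and the microglial Cluster 6 with 1762 ± 635 CPM (n = 14). The mice of these 4 clusters overlapped, though Fcer1g was higher in Cluster 10 than in Cluster 6 in 13 of 14 mice, and the red blood cells of Cluster 17 came next at 160 ± 150 CPM (n = 4). The other 12 clusters had means of at most 25.6 CPM.

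Clusters 6, 10, 12 and 16 had Fcgr3 means of 571 ± 155, 477 ± 224, 271 ± 170 and 240 ± 186 CPM (SD, n = 14, 14, 10 and 5 mice). Neighbours in this order lay within the larger of their SDs, whereas the next cluster, Cluster 17, was at 18.6 CPM. Fcgr2b averaged 298 ± 248 CPM in the immune cells, 218 ± 389 CPM in Cluster 16, and 162 ± 55.0 and 138 ± 61.9 CPM in the microglial Clusters 6 and 10, over as many mice per cluster. Its level in Cluster 16 came largely from 1 mouse with 903 CPM, and over all cells of that cluster it was 39.1 CPM. Outside these 4 clusters, Fcgr2b had a mean of at most 13.4 CPM.

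Among the scavenger receptors, Cd68, a lysosomal glycoprotein used as a marker of phagocytes, had means of 716 ± 350, 398 ± 317, 372 ± 114 and 184 ± 307 CPM in Clusters 10, 12, 6 and 16 (SD, n = 14, 10, 14 and 5 mice). With all cells summed, the value in Cluster 16 was 37.1 CPM, and in Cluster 17 it was 6.70 CPM as a mean of mice and 124 CPM over all cells. Msr1, which binds modified lipoproteins, reached 197 ± 230 CPM in the immune cells and 131 ± 165, 65.5 ± 147 and 29.8 ± 54.1 CPM in Clusters 10, 16 and 6. The spread exceeded the mean in each of these clusters, and in Cluster 16 the signal was 2 UMIs in all. Over all mice, Msr1 had 0 UMIs in Clusters 7 and 15 and 1 UMI in Clusters 1, 2, 5, 9 and 14.

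Cd36, a receptor of oxidised lipids and long-chain fatty acids, averaged 106 ± 67.7 CPM in the immune cells, 61.4 ± 68.0 CPM in red blood cells, and 44.4 ± 52.7 and 9.82 ± 17.5 CPM in Clusters 10 and 6 (SD, n = 10, 4, 14 and 14 mice). The first 3 overlapped within their spread. Mrc1, the mannose receptor, was at 338 ± 271 CPM in Cluster 12, and each of the other 16 clusters had a mean of at most 12.8 CPM.

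The TAM receptors among the members reached beyond the phagocytes. Mertk, a receptor for the uptake of dying cells, averaged 896 ± 300 and 400 ± 166 CPM in Clusters 6 and 10 and 382 ± 189 CPM in the astrocytes of Cluster 7 (SD, n = 14, 14 and 15 mice). Schwann cells had 209 ± 47.6 CPM of Mertk (n = 5), pericytes 164 ± 60.7 CPM (n = 15), endothelial cells 113 ± 34.8 CPM (n = 15) and immune cells 96.1 ± 67.5 CPM (n = 10). In the astrocytes of Cluster 5 it was at 157 ± 240 CPM (n = 14), with a median of 23.6 CPM and a highest mouse of 833 CPM. Cluster 6 lay above all other clusters by more than 1 SD, and Clusters 10 and 7 did not differ beyond their spread.

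Axl, the other TAM receptor among the members, had its highest mean in fibroblasts, at 228 ± 177 CPM (SD, n = 9 mice). Cluster 10 had 168 ± 92.4 CPM of Axl (n = 14), pericytes 164 ± 60.5 CPM (n = 15), immune cells 117 ± 89.5 CPM (n = 10) and the astrocytes of Cluster 5 had 91.4 ± 59.8 CPM (n = 14). Clusters 7 and 6 followed at 53.4 ± 28.2 and 52.4 ± 50.8 CPM. Neighbours in this order lay within the larger of their SDs, and endothelial cells were at 5.70 ± 5.06 CPM (n = 15). Since the clusters had been made from the same counts, levels of the members across clusters are given as a description without a test. With all cells of a cluster summed in place of the mean over mice, 143 of the 153 levels stayed within 1 SD.

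**Figure D1:**
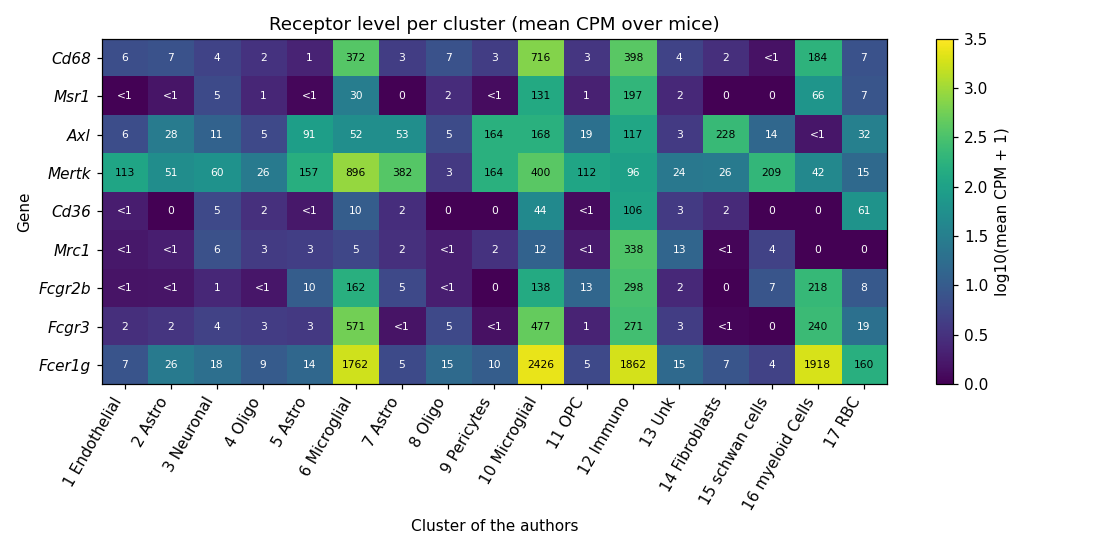
Mean CPM over mice of the 9 receptor genes (vertical axis) in the authors' 17 clusters (horizontal axis), with colour on a log10 scale and the mean printed in each cell. Fcer1g, Fcgr3 and Cd68 are high in Clusters 6, 10 and 12, and Fcer1g and Fcgr3 also in Cluster 16. Mrc1 is high in Cluster 12 alone (338 CPM), and Axl and Mertk are also high in pericytes (164 CPM each).

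The share of cells with a UMI of each member was set beside that in neurons, as a comparison of cell types and not as a measure of free RNA, which was not estimated. The median cell had 978 UMIs in Clusters 6 and 10 and 1848 in neurons, but 6569 and 2581 at 14 d. Fcer1g was found in 77.8% of the cells of Clusters 6 and 10 and in 4.06% of neurons. For Fcgr3 the shares were 52.5% and 1.61%, for Cd68 47.4% and 1.13%, and for Fcgr2b 28.3% and 0.885%. Mertk was found in 49.4% and 15.2%, Axl in 17.9% and 5.71%, Msr1 in 7.23% and 1.93%, and Cd36 in 3.71% and 1.93%. With the times pooled, each of these 8 was in a larger share of cells in Clusters 6 and 10. Taken by time, Cd36 at 7 d (1.52% and 1.92%) and without injury (0.493% and 0.508%), Axl at 1 d (5.14% and 5.20%) and Msr1 without injury (0% and 0.254%) were not. Mrc1 was in 0.986% of the cells of Clusters 6 and 10 and 2.82% of neurons. After each cell had been thinned to 500 UMIs, with 2961 of the 18203 cells left out as too shallow, the order of each pair over all times was the same, at 59.4% and 1.08% for Fcer1g, 2.00% and 0.346% for Msr1, 0.666% and 0.303% for Cd36 and 0.303% and 0.606% for Mrc1. Of the exceptions by time, Axl at 1 d was then at 4.20% and 1.04%, Cd36 at 0.754% and 0.709% at 7 d and at 0.493% and 0.254% without injury, and Msr1 without injury was at 0% in both.

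The annotation of the phagocyte clusters was set against marker lists. All 9 listed microglial genes were counted in Clusters 6 and 10, with summed levels of 16530 and 8030 CPM. Cluster 12, annotated as immune, held 8 monocyte markers of 8 at 4472 CPM in sum (Fn1 the most abundant), 7 of 7 markers of border-associated macrophages at 1930 CPM (F13a1) and 6 of 6 of dendritic cells at 2597 CPM (H2-Ab1), so its values are those of a mixture. Cluster 16, labelled myeloid, was led by neutrophil markers, 8 of 8 at 144000 CPM with S100a9 the most abundant, and Ms4a7, Cd163, Tmem119 and Sall1 were at 0. It is therefore called by its number, and its Fcer1g and Fcgr3 are levels in cells with neutrophil transcripts.

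Clusters 6 and 10 were compared within each of 14 mice, again as a description because the clusters were made from these counts. Axl was higher in Cluster 10 in 14 of 14 mice, with medians of 192 CPM in Cluster 10 and 43.4 CPM in Cluster 6. Mertk was lower in Cluster 10 in 14 of 14 mice, with medians of 451 and 918 CPM, so Axl and Mertk differed between the clusters in opposite directions. Cd68 was higher in Cluster 10 in 13 of 14 mice (medians 653 and 353 CPM), and so was Fcer1g (2216 and 1741 CPM). Msr1 was higher in Cluster 10 in 11 mice and at 0 in both in the other 3 (medians 72.9 and 4.08 CPM), and Cd36 was higher in 11, lower in 1 and equal in 2 (35.6 and 2.77 CPM). Fcgr2b and Fcgr3 were lower in Cluster 10 in 11 of 14 mice each, with medians of 138 and 167 CPM for Fcgr2b and 378 and 530 CPM for Fcgr3. Cluster 10 made up 14.1% to 42.1% of the cells of both clusters in uninjured mice, 25.5% to 55.7% at 1 d, 29.0% to 47.5% at 7 d and 44.0% to 62.5% at 14 d, so values of both clusters together also carry a difference in their shares.

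The response of the receptors to the lesion was tested on the UMIs of Clusters 6 and 10 summed per mouse, with WT and cKO averaged, by edgeR's quasi-likelihood test over 9268 genes with Benjamini-Hochberg adjustment. All 9 members passed the filter on low counts, which needs enough counts in as many mice as the smallest condition held, here 1. Cd36 met it only in the mice at 1 d, and Mrc1 only in cKO 7 d replicate 2, where each was highest. The mice had 38 to 576 cells and 72147 to 1615112 UMIs in these clusters. The uninjured group was 3 mice, WT replicates 1 and 2 and cKO replicate 2, since cKO replicate 1 had 6 such cells and was left out.

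Msr1 was not counted in the 3 uninjured mice, with 0 UMIs in 197 cells and 477668 UMIs. At 1 d the WT mouse had 249 CPM (18 UMIs) and cKO replicates 1 and 2 had 226 and 249 CPM (22 and 103 UMIs). Each mouse at 1 d stood far above each uninjured mouse, and the 3 mice at 1 d lay close together. At 7 d, Msr1 was at 24.1 and 8.16 CPM in WT and at 54.4 and 25.1 CPM in cKO. At 14 d it was at 25.7 and 64.2 CPM in WT and at 65.0 and 21.1 CPM in cKO. The values at 7 d and 14 d overlapped with each other and lay below those at 1 d. A count of 0 in the uninjured group allows up to 3 counts over the group (6.28 CPM), so Msr1 was at least 39.1-fold above it at 1 d, and at 7 d and 14 d by at least 4.11-fold and 7.87-fold. These bounds lean on WT uninjured replicate 1, which held 257636 of the UMIs. Within the clusters they were 12.9 in Cluster 6 and 11.3 in Cluster 10 at 1 d, but 0.849 and 1.53 at 7 d and 0.673 and 2.17 at 14 d, so in Cluster 6 alone the later levels are not separated from the uninjured one.

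Msr1 and Cd36 rose at 1 d, 2 of the 9 members against 0.248% of all genes tested (23 of 9268, of which 18 rose and 5 fell). For Msr1, the fitted log2 fold change was 10.06 (standard error 1.49, adjusted p = 0.00544), a value that depends on the prior count since the uninjured group was at 0. Over 17 other settings its adjusted p ranged from 1.32e-12 to 0.312 and was under 0.05 in 16. Among these, the exception was the fit with the conditions of the cell names (adjusted p = 0.312). The call was also lost in cKO alone, where the uninjured group is 1 mouse, although Msr1 was at 226 and 249 CPM there at 1 d against 0. It was kept in WT alone, where 1 d is 1 mouse and the spread comes from other groups. In Cluster 10 alone the adjusted p of Msr1 was 0.0103, 1 member called against 0.147% of all genes (10 of 6788), and in Cluster 6 alone it was 0.178.

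Cd36 was at 3.88 CPM (1 UMI) in WT uninjured replicate 1 and at 0 in the other uninjured mice. At 1 d the WT mouse had 111 CPM (8 UMIs) and the cKO mice 51.3 and 38.7 CPM (5 and 16 UMIs). The last of these, cKO replicate 2, had the lowest Cd36 of the 3 and stood apart in the red blood cell marker Hbb-bs, at 4573 normalized CPM against 76.9 and 28.4 in the WT mouse and cKO replicate 1. At 7 d the values of Cd36 were 24.1 and 11.4 CPM in WT and 17.3 and 10.8 CPM in cKO, and at 14 d they were 11.4 and 11.9 CPM in WT and 24.2 and 21.1 CPM in cKO. Each mouse at 1 d lay above all other mice. These 3 mice alone brought Cd36 through the filter on low counts, so its call was not independent of the filter. The uninjured mice held 86903 to 257636 UMIs in these clusters, too few to place a single mouse at 7 d or 14 d above or below them in Cd36. From pooled UMIs, Cd36 was 23.8 times as high at 1 d as in uninjured mice, with a 95% counting interval of 3.94 to 971. The fitted log2 fold change of Cd36 at 1 d was 6.39 (standard error 1.28, adjusted p = 0.0431).

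This call of Cd36 was close to the threshold and was kept in 5 of 16 other settings with an adjusted p. Its adjusted p was 0.0608 with a replicate block, 0.0741 with the animal number series in the design and 0.426 under the conditions that cell names give, within a range of 0.00244 to 0.426. It was also lost without WT uninjured replicate 1 (0.0817) or 2 (0.0826), cKO 1 d replicate 1 (0.0919) or 2 (0.110), WT 7 d replicate 1 (0.0563) or 2 (0.0561), and cKO 14 d replicate 1 (0.0749) or 2 (0.0752). In WT alone the adjusted p of Cd36 was 0.104 and in cKO alone it was 0.579. DESeq2 gave Cd36 no adjusted p.

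The difference between 7 d and 1 d was added after seeing the data. Cd36 was in this test only through its levels at 1 d. Msr1 and Cd36 were lower at 7 d than at 1 d, 2 of the 9 members against 0.917% of all genes (85 of 9268, of which 54 were lower and 31 higher). Msr1 fell by 3.46 on the log2 scale (standard error 0.54, adjusted p = 0.00940), and the call was lost with the conditions of the cell names (adjusted p = 0.540), without cKO 1 d replicate 2 (0.0732) and without WT 7 d replicate 2 (0.113), within a range of 1.65e-10 to 0.540. Cd36 fell by 2.25 (standard error 0.50, adjusted p = 0.0399) and was under 0.05 in 8 of 17 settings with an adjusted p, which ranged from 0.0185 to 0.722. The call of Cd36 was lost without cKO 1 d replicate 1 (0.0634) or 2 (0.161), WT 7 d replicate 2 (0.251), cKO 7 d replicate 2 (0.122) and cKO 14 d replicate 1 (0.0797) or 2 (0.0761), and its adjusted p was 0.0522 with the replicate block, 0.0578 with the animal number series and 0.722 with the cell names.

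Axl was at 19.4 and 37.6 CPM in uninjured WT replicates 1 and 2 and at 23.0 CPM in uninjured cKO replicate 2. The WT mouse at 1 d had 27.7 CPM and the cKO mice 71.8 and 29.1 CPM. At 7 d Axl was at 120 and 170 CPM in WT and at 218 and 83.7 CPM in cKO, and at 14 d at 127 and 183 CPM in WT and at 153 and 158 CPM in cKO. The 8 mice at 7 d and 14 d lay above the 6 mice without injury or at 1 d, and the values at 1 d overlapped with the uninjured ones. From pooled UMIs, Axl was 1.44 times the uninjured level at 1 d (95% counting interval 0.674 to 3.20), 5.57 times at 7 d (3.14 to 10.9) and 6.36 times at 14 d (3.62 to 12.4). These intervals cover counting error only and leave out the differences between mice. Within the clusters the ratios of Axl at 14 d were lower, 3.13 in Cluster 10 (1.43 to 8.57) and 3.49 in Cluster 6 (1.55 to 9.71), and at 7 d they were 2.98 (1.34 to 8.25) and 5.78 (2.57 to 16.1), each against 6 UMIs in uninjured mice. In Cluster 6 at 7 d, cKO replicate 1 held 48 of the 109 UMIs, at 208 CPM. The other mice at 7 d were between 38.5 and 94.2 CPM there, and the uninjured mice between 8.62 and 28.4 CPM.

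Axl did not pass the test at 7 d (log2 fold change 2.57, standard error 0.58, adjusted p = 0.114), where 0 members were called by edgeR against 0.108% of all genes (10 of 9268), 4 members and 784 genes had an unadjusted p under 0.05, and DESeq2 called 1 member. At 14 d its log2 fold change was 2.65 (standard error 0.56, adjusted p = 0.0502), with 0 members called by edgeR against 0.345% (32 of 9268), an unadjusted p under 0.05 for 4 members among 982 genes, and 2 members called by DESeq2. The adjusted p of Axl at 14 d was under 0.05 in 8 of 18 other settings, within a range of 4.79e-05 to 0.180, among them DESeq2 (0.0219), the replicate block (0.0398) and the animal number series (0.0167). It also came under 0.05 without cKO 7 d replicate 1 (0.00980), cKO 7 d replicate 2 (0.0103), WT 14 d replicate 1 (0.0423) or the WT mouse at 1 d (0.0446). At 7 d, Axl was under 0.05 in 3 of 18 settings (range 0.000410 to 0.717), of which 1 was the fit without cKO 7 d replicate 2 (0.00780). Between 7 d and 1 d its log2 difference was 2.22 (standard error 0.57, adjusted p = 0.0683). Msr1 at 14 d had an adjusted p of 0.0900 and came under 0.05 in 3 of 18 settings (range 0.000102 to 0.335), 1 of them without cKO 14 d replicate 2 (0.0415).

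**Figure D2:**
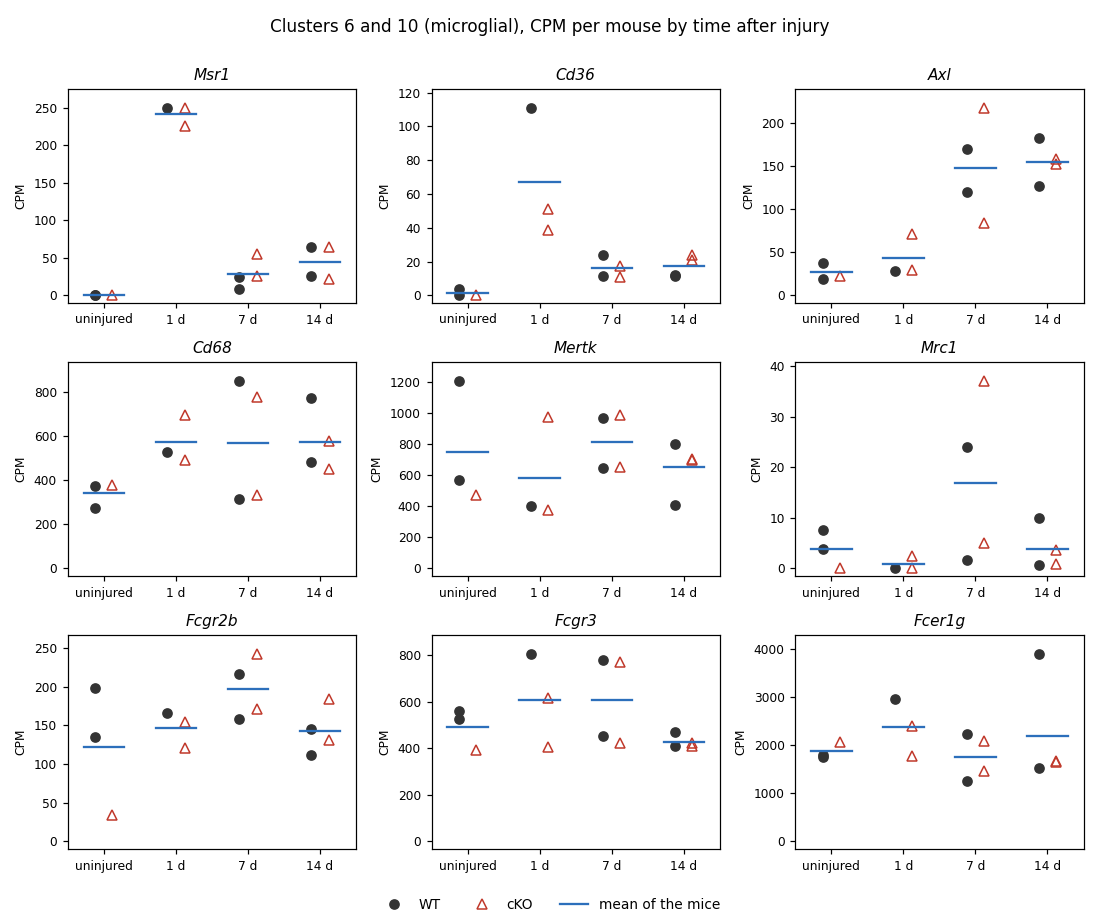
CPM per mouse of the 9 receptor genes in Clusters 6 and 10 together (vertical axes, from 0) by time after the lesion (horizontal axes), with filled circles for WT, open triangles for cKO and lines for the mean of the mice. Msr1 and Cd36 are highest at 1 d (226 to 249 and 38.7 to 111 CPM), and Axl is highest at 7 d and 14 d (83.7 to 218 CPM).

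The other 6 members had no call at any time. Cd68 was between 276 and 380 CPM in uninjured mice, 491 and 697 CPM at 1 d, 316 and 850 CPM at 7 d and 449 and 775 CPM at 14 d. All mice at 1 d and 14 d lay above the uninjured mice in Cd68, the mice at 7 d overlapped with them, and the fitted log2 fold changes were 0.53, 0.67 and 0.73 (adjusted p = 0.652, 0.726 and 0.606). The mice at 7 d were split by replicate, with Cd68 at 850 and 779 CPM in replicate 1 of WT and cKO and at 316 and 331 CPM in replicate 2. In the same order, Fcgr3 was at 778 and 769 CPM and at 453 and 424 CPM. Mertk was lower in replicate 1, at 649.6 and 650.5 CPM against 969 and 987 CPM. Taken by cluster, Cd68 in Cluster 10 was between 146 and 382 CPM in uninjured mice (4 to 9 UMIs) and between 455 and 1348 CPM in injured mice, without overlap, with pooled ratios of 2.60, 2.67 and 2.48 at 1 d, 7 d and 14 d (adjusted p = 0.483, 0.124 and 0.147). In Cluster 6 the ratios of Cd68 were 1.12, 0.825 and 1.04. Monocyte markers in Cluster 10 summed to 0 CPM in the uninjured mice and to 216 to 1589 CPM at 1 d. They were at 381 to 963 CPM at 7 d and at 219 to 617 CPM at 14 d. Their part in the change of Cd68 was not tested. Mertk was between 472 and 1207 CPM in uninjured mice, 373 and 974 CPM at 1 d, 650 and 987 CPM at 7 d and 409 and 804 CPM at 14 d, with overlap at each time.

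Fcer1g was between 1747 and 2071 CPM in uninjured mice and between 1253 and 3892 CPM in injured mice. Fcgr3 was between 391 and 559 CPM and between 404 and 804 CPM, and Fcgr2b between 34.5 and 198 CPM and between 112 and 242 CPM, so these Fc receptor genes overlapped between injured and uninjured mice. Their fitted log2 fold changes ran from −0.15 (Fcer1g at 7 d) to 1.31 (Fcgr2b at 7 d, adjusted p = 0.361). For Fcgr2b, pooled UMIs gave a ratio of 1.22 at 7 d (95% counting interval 0.949 to 1.60), and 1 uninjured mouse, cKO replicate 2, rested on 3 UMIs. Mrc1 stayed between 0 and 37.1 CPM. Of the 37 UMIs of Mrc1 at 7 d, 29 came from 2 cells of Cluster 10 in cKO replicate 2, which together held 55 UMIs of border-associated macrophage markers.

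The 8 listed genes of monocytes and monocyte-derived macrophages summed to 0 to 15.0 CPM in uninjured mice, 273 to 749 CPM at 1 d, 157 to 417 CPM at 7 d and 119 to 342 CPM at 14 d in Clusters 6 and 10. Most of this was Fn1, with 341 CPM from pooled UMIs at 1 d against 2.09 CPM in uninjured mice, beside 10.3 CPM of Ms4a7 at 1 d. At 1 d, Ly6c2, Plac8 and Ifitm6 were at 0, Chil3 was at 1.72 CPM against 2.09 CPM without injury and Ccr2 was at 3.43 CPM (2 UMIs), so the sum does not stand for the list as a whole. Microglial markers summed to 16200 to 19400 CPM in uninjured mice, 8187 to 12150 CPM at 1 d, 12650 to 16150 CPM at 7 d and 9042 to 12510 CPM at 14 d. Border-associated macrophage markers summed to 82.6 to 144 CPM in uninjured mice and 113 to 402 CPM at 1 d, with Stab1 the most abundant and Lyve1 at 0.

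The receptors were then counted in the cells without a UMI of the monocyte list, a step chosen after seeing the data. At 1 d, where 61 of 388 cells were left out, Msr1 was between 176 and 248 CPM in the 3 mice and kept 89 of its 143 UMIs, and it was at 0 in uninjured mice. Cd36 at 1 d was between 32.0 and 51.8 CPM in those cells (14 of 29 UMIs). At 14 d, 131 of 547 cells were left out, and the cells kept in cKO replicate 1 held 855109 of its 1615112 UMIs. Msr1 was then between 6.91 and 10.2 CPM and kept 22 of 243 UMIs, and Axl was between 91.8 and 116 CPM and kept 287 of 785. At 7 d, where 131 of 990 cells were left out, Axl was between 41.2 and 202 CPM and Msr1 between 0 and 37.3 CPM. A cell without such a UMI may still be a monocyte, since the median cell at 1 d held 651 UMIs, so these levels do not tell which cells carried Msr1, Cd36 or Axl. The lowest mouse of Axl at 7 d (41.2 CPM) lay next to the highest uninjured mouse (39.4 CPM, 5 UMIs).

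The study asked what the loss of Ryk in astrocytes does to the cells around the lesion. In Clusters 6 and 10, edgeR called 0 members and 0% of all genes between cKO and WT averaged over the times after injury, at each of these times and in uninjured mice. At an unadjusted p under 0.05 there were 346 genes and 0 members in that average, where DESeq2 called 0 genes. The log2 fold changes of the 9 members (cKO minus WT, mean over injury) ran from −0.42 for Fcer1g to 1.34 for Mrc1, with a median of 0.06 against 0.09 over all genes. Both ends moved with single mice. For Mrc1 (standard error 2.97) the value was 0.25 without cKO 1 d replicate 2 and 2.19 without WT 14 d replicate 1, and it was −0.24 in DESeq2. That of Fcer1g was −0.05 without WT 14 d replicate 1 and −0.64 without WT 14 d replicate 2. At 7 d both cKO mice had more Msr1 (54.4 and 25.1 CPM, 22 and 21 UMIs) than both WT mice (24.1 and 8.16 CPM, 3 and 5 UMIs). The lower cKO mouse lay next to the higher WT mouse. The log2 fold change was 1.76 (adjusted p = 1.00), and Msr1 was the 1 member with an unadjusted p under 0.05 at that time. The WT and cKO mice overlapped at 7 d in Cd36 and in Axl. At 14 d both cKO mice had more Cd36 (24.2 and 21.1 CPM) than both WT mice (11.4 and 11.9 CPM). Its log2 fold change was 0.80, and 0 members had an unadjusted p under 0.05 at that time. Uninjured cKO was 1 mouse here. The response to injury did not pass a test of a difference between genotypes for any member at 1 d, 7 d or 14 d (interaction in edgeR, 0 members called, an unadjusted p under 0.05 in 523, 383 and 425 genes), and Fcgr2b was the 1 member among these genes each time. Fcgr2b was also the 1 member with an unadjusted p under 0.05 between cKO and WT without injury (log2 fold change −2.30, adjusted p = 0.911), a value that rests on 1 cKO mouse with 3 UMIs.

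The immune cells of Cluster 12 were followed in 10 mice with 10 to 45 cells and 11044 to 326848 UMIs each. Only 1 uninjured mouse had enough cells, so the times after injury were compared with each other. Msr1 was at 597 CPM in the WT mouse and 536 and 420 CPM in cKO at 1 d. The WT mouse at 7 d had 181 CPM (2 UMIs) and the cKO mice 0 and 27.5 CPM, and at 14 d the values were 63.6 CPM in WT and 85.0 and 31.4 CPM in cKO. All mice at 1 d lay above all later mice. Fcgr2b was at 438 CPM in WT and 875 and 525 CPM in cKO at 1 d, 181 CPM in WT and 278 and 190 CPM in cKO at 7 d, and 159 CPM in WT and 102 and 118 CPM in cKO at 14 d, again with all mice at 1 d above the others.

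Mrc1 in Cluster 12 was at 79.6 CPM in WT and 282 and 7.50 CPM in cKO at 1 d, 724 CPM in WT and 186 and 483 CPM in cKO at 7 d, and 699 CPM in WT and 612 and 236 CPM in cKO at 14 d. The ranges at 1 d and later overlapped through cKO 1 d replicate 1. The uninjured mouse, WT replicate 2, had 65.5 CPM of Mrc1, 32.8 CPM of Msr1 and 115 CPM of Fcgr2b. Cd36 was between 28.2 and 79.6 CPM at 1 d, between 61.9 and 242 CPM at 7 d and between 55.0 and 127 CPM at 14 d.

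Between 7 d and 1 d, edgeR tested 8 of the 9 members among 1992 genes of Cluster 12 and called 0 members and 0% of all genes, with 249 genes and 2 members at an unadjusted p under 0.05. The log2 differences were −3.14 for Msr1 (standard error 0.67, adjusted p = 0.347), −1.51 for Fcgr2b (standard error 0.57, adjusted p = 0.382) and 2.38 for Mrc1 (standard error 1.11, adjusted p = 0.421). Between 14 d and 7 d, 0 members and 0% of all genes were called, with 93 genes at an unadjusted p under 0.05, and the members ran from −1.13 (Cd68) to 0.84 (Fcgr3). Mertk did not pass the filter. The markers of Cluster 12 moved as well, with monocyte markers summing to 9030 to 10690 CPM at 1 d, 1176 to 3237 CPM at 7 d and 1359 to 2091 CPM at 14 d, and dendritic cell markers to 438 to 987, 1547 to 3712 and 3112 to 8190 CPM. Lymphocyte markers summed to 0 to 67.5, 0 to 181 and 110 to 613 CPM at these times, and to 1245 CPM in the uninjured mouse. The part of this change in the mixture of cells in the values of Msr1, Fcgr2b and Mrc1 was not tested.

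**Figure D3:**
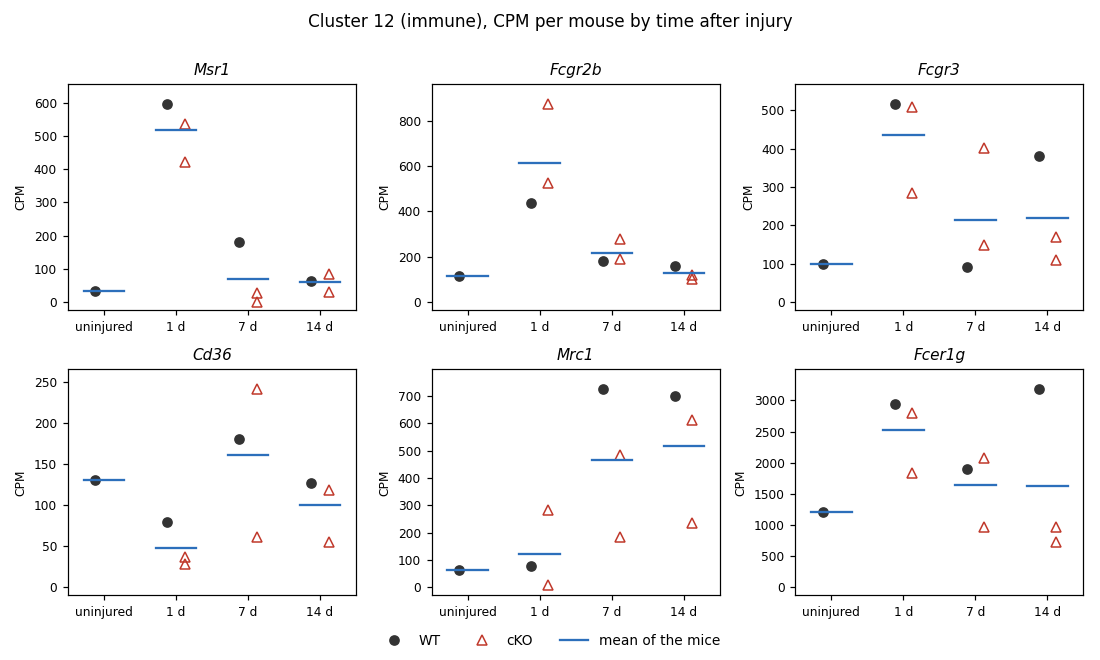
CPM per mouse of 6 receptor genes in the immune cells of Cluster 12 (vertical axes, from 0) by time after the lesion (horizontal axes), with filled circles for WT, open triangles for cKO and lines for the mean of the mice. Msr1 (420 to 597 CPM) and Fcgr2b (438 to 875 CPM) are highest at 1 d.

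Outside the phagocytes, Axl and Mertk were followed in astrocytes, pericytes and endothelial cells. In the astrocytes of Clusters 5 and 7, Axl was between 49.2 and 64.2 CPM in 4 uninjured mice, 24.0 and 103 CPM at 1 d, 31.3 and 102 CPM at 7 d and 66.0 and 94.7 CPM at 14 d. The 4 mice at 14 d lay above the uninjured mice by a small margin, with a log2 fold change of 0.15. Mertk in these clusters was at 807 and 104 CPM in uninjured WT replicates 1 and 2 and at 424 and 80.8 CPM in uninjured cKO, so the uninjured mice covered the range of all injured mice. At 14 d it was at 125 and 119 CPM in WT and 294 and 237 CPM in cKO, with a log2 fold change of −0.87. Mertk had a higher mean in Cluster 7 than in Cluster 5. Its values over both clusters may therefore also carry a difference in their shares, which was not tested. By edgeR, 0.125% of 10400 genes passed at 1 d (13), then 0% at 7 d and again 0% at 14 d, and 0 of the 4 members tested (Axl, Mertk, Fcgr2b and Fcer1g) were among them. Fcgr2b had 0 UMIs in the 4 uninjured mice, 34.4 CPM in WT and 0 and 10.4 CPM in cKO at 1 d, and 33.9 and 10.1 CPM in WT and 15.7 and 1.44 CPM in cKO at 7 d, from 1 to 8 UMIs in each mouse above 0. Fcgr2b passed the filter on low counts only through WT replicate 1 at 1 d and 7 d (2 UMIs each). Fcgr2b was thus not tested independently of these levels. It was the 1 member with an unadjusted p under 0.05 at 1 d and at 7 d (adjusted p = 0.577 and 0.881), while an unadjusted p under 0.05 was found for 612, 524 and 330 genes.

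In pericytes, which were added after seeing the data, Axl was between 60.1 and 173 CPM in uninjured mice and between 165 and 214 CPM at 14 d, with log2 fold changes of 0.36, 0.28 and 0.62 at 1 d, 7 d and 14 d. Mertk had −0.26, 0.56 and 0.50. The ranges of both overlapped between injured and uninjured mice, and edgeR called 0 of these 2 members and 0% of 6876 genes at each time. In endothelial cells, Mertk was between 68.5 and 154 CPM in 4 uninjured mice and between 45.5 and 114 CPM at 1 d, with a log2 fold change of −0.88 (standard error 0.32, adjusted p = 0.922). Of 10985 genes there, 0.0091% passed at 1 d (1), then 0% at 7 d and again 0% at 14 d, and 0 of the 4 members tested (Mertk, Axl, Cd68 and Fcer1g) were called, while an unadjusted p under 0.05 was found for 572, 982 and 833 genes.

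The genes that act with these receptors in uptake were followed as a list of 69, of which 62 were tested in Clusters 6 and 10. At 1 d, 0 of the 62 were called by edgeR, with 10 higher and 5 lower at an unadjusted p under 0.05, beside 1279 of all 9268 genes. At that threshold, 15 of the 62 were higher and 2 lower at 7 d, beside 784 of all genes. For 14 d these numbers were 16 and 2, beside 982 of all genes. At 7 d, 1 was called as higher, Gpnmb, a glycoprotein of phagosomes and lysosomes, beside 0.108% of all genes (10 of 9268). It had 0 CPM after normalization in the 3 uninjured mice and 132 to 1023 CPM in the 4 mice at 7 d (adjusted p = 0.0148). At 14 d, 4 rose and 0 fell, Gpnmb (148 to 572 CPM, adjusted p = 0.0130), Clec7a, a receptor of fungal glucans (log2 fold change 2.48, adjusted p = 0.0133), the galectin Lgals3 (4.91, adjusted p = 0.0290) and the inhibitory receptor Lilrb4a (5.59, adjusted p = 0.0455). These are 4 of 62 beside 0.345% of all genes, and for each of the 4 all mice at 14 d lay above all uninjured mice. Between 7 d and 1 d, Gpnmb was the 1 gene of the 62 that was called (adjusted p = 0.0109). This is near the share of all genes called there, 0.917% (85 of 9268).

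All 4 calls at 14 d were lost without WT uninjured replicate 1, where 0 genes were called, with an adjusted p of 0.0561 for Gpnmb and Clec7a, 0.149 for Lgals3 and 0.0847 for Lilrb4a. In cKO alone 0 genes were called. In WT alone the adjusted p was 0.0350 for Gpnmb, 0.0244 for Clec7a and 0.00142 for Lgals3, and Lilrb4a was lost (0.368). Under the conditions of the cell names, the adjusted p of Gpnmb was 0.239 at 7 d, 0.151 at 14 d and 0.457 between 7 d and 1 d, and at 14 d that of Clec7a was 0.0270, of Lgals3 0.0368 and of Lilrb4a 0.151. The call of Gpnmb between 7 d and 1 d was lost without cKO 1 d replicate 2 (0.106). Clec7a was also lost without cKO 14 d replicate 1 (0.0531), and Lgals3 without that mouse (0.0531), cKO 1 d replicate 1 (0.0529) or WT uninjured replicate 2 (0.0682). Lilrb4a was under 0.05 in 7 of 17 settings (range 0.00651 to 0.151) and was lost without cKO 1 d replicate 1 (0.0570) or 2 (0.0505), WT 7 d replicate 1 (0.0605) or 2 (0.0577), WT uninjured replicate 2 (0.0916), WT 14 d replicate 2 (0.0795) and cKO 14 d replicate 1 (0.120) or 2 (0.0617). Over 18 settings, the adjusted p at 14 d ranged from 4.80e-18 to 0.151 for Gpnmb, from 3.63e-07 to 0.0561 for Clec7a and from 2.26e-14 to 0.149 for Lgals3.

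By role, the 16 tested genes of the phagosome and lysosome had median log2 fold changes of 0.53, 0.95 and 0.99 at 1 d, 7 d and 14 d, beside 0.02, 0.17 and 0.18 over all genes. The 22 other receptors had medians of 0.28, 0.13 and 0.05, the 11 adaptors and kinases 0.04, 0.15 and 0.06, and the 5 inhibitors, among them Lilrb4a, −0.11, 0.26 and 0.20. The 8 bridging molecules and opsonins had −0.21, −0.02 and −0.23. The ligands of Axl and Mertk were among them, with log2 fold changes at 1 d of 1.77 for Gas6 and −0.96 for Pros1 (adjusted p = 0.245 and 0.257). The 3 comparisons share the uninjured mice. Between cKO and WT, 0 of the 62 were called for the mean over injury, and 2 had an unadjusted p under 0.05, beside 346 of all 9268 genes.

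The genes most like each member over the 17 cluster means were found by Pearson's r of log2(CPM + 10) among 10194 genes with at least 50 CPM in some cluster, as a description of clusters that share mice and depth. For Fcer1g it was Tyrobp (r = 0.994), for Fcgr3 Mpeg1 (0.994), for Cd68 C3ar1 (0.995), for Msr1 Ms4a6d (0.979) and for Fcgr2b Lrrc25 (0.976). For Mrc1 it was Pf4 (0.976) and for Cd36 Slamf7 (0.945), with Clec10a and Ifi209 next. Axl and Mertk had no match as close, with Slc29a1 at 0.849 and Cyfip1 at 0.856. Among the members, Cd68 and Fcgr3 were most alike (0.984) and Mertk and Cd36 least (0.0863), and Axl and Mertk had an r of 0.428.

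In the GENCODE annotation of mm10, the 3 Fc receptor genes lie within 275749 bp of chromosome 1, with Fcgr2b at 170958617 to 170976547, Fcgr3 at 171051174 to 171064935 and Fcer1g at 171229572 to 171234365, all on the minus strand. The others lie on chromosomes 11 (Cd68, 69664213 to 69666153), 8 (Msr1, 39581685 to 39642673), 7 (Axl, 25757273 to 25788705), 5 (Cd36, 17781690 to 17888801) and 2 (Mertk, 128698956 to 128802894, and Mrc1, 14229392 to 14332057). Of the stretches of 31 bases in the Fcgr3 transcript, 17.7% also occur in transcripts of other genes, 233 of them in Fcgr2b, but 0 lie in its last 500 bases, where 3′ tags fall. For Fcgr2b the share was 15.1%, with most in common with Ntrk3 (234), and again 0 lay in the last 500 bases. Annotated genes on the opposite strand overlap Mertk (Gm14011) and Fcgr2b (Gm38204).

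Promoter windows of 300 bases (250 before a transcription start and 50 after it) were found for 8 of the 9 members in RefSeq sequences of GRCm38.p6, 9 windows in all. For Cd36, Fcgr2b and Fcgr3 these windows lie inside the GENCODE gene, so another start than its first base was used. No window was at hand for Msr1. The letters GAGGAAGT, a form of the PU.1 motif, were searched on both strands and found in 0 of the 8 members and in 3.20% of all 32851 promoters, and TCACGTGA, a form of the TFEB and MITF motif, in 0 and 0.974%. Absence of these letters says no more than that they are not in these windows. The windows of Cd36 (chr5:17835847-17836146, minus strand) and Axl (chr7:25788684-25788983, minus strand) are printed as those of a member called at 1 d and of a member whose levels were highest at 7 d and 14 d without a call in the main edgeR fit.
Cd36: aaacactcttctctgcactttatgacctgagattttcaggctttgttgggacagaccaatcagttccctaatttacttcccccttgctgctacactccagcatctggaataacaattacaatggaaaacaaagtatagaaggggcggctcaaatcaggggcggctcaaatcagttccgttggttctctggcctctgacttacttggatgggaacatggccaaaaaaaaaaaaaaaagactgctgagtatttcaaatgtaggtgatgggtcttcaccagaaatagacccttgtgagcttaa
Axl: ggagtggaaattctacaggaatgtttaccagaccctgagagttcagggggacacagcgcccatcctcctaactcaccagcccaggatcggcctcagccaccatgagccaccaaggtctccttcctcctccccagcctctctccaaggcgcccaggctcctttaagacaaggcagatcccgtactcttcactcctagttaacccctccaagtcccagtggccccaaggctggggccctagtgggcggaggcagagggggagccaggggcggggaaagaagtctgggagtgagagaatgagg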

How the data were processed

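The authors counted UMIs with Cell Ranger on an mm10 reference, filtered the cells, clustered them with Seurat and Harmony in R 4.1.2, and deposited raw counts without normalization, with a table of cells, mice and clusters. Here, counts were summed per mouse and class (at least 10 cells) and tested with edgeR 4.0.16 (TMM, filterByExpr, quasi-likelihood, 8 conditions in 1 fit, Benjamini-Hochberg, threshold 0.05) in R 4.3.3, with DESeq2 1.42.0 as an alternative, both tested on simulated data. CPM, intervals (95%, counting error only), floors (3 counts) and correlations came from Python (3.11.15) scripts using scipy 1.17.1, pandas 2.3.3 and numpy 2.4.6, with figures drawn in matplotlib 3.10.9. In all 16 mice, the batch given by the authors is the replicate number. Pairing of mice by replicate was checked by correlating deviations from group means between conditions (median 0.0464 over 15 pairs of conditions, 6 above 0.1).

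The members and lists were chosen with earlier results of these data known. Named genes were mainly all members, genes of the uptake list that were called, the closest genes by cluster pattern, and markers. From the uptake list, Gas6 and Pros1 were also named as ligands of Axl and Mertk, and C1qa and C1qb for the flagged mouse. The 7 d against 1 d contrast, fits without mice with other cell names, cells without monocyte markers and pericytes were chosen after seeing the data. Free RNA was not removed, and doublets were neither called nor removed here. No protein table was at hand, so protein motifs were not searched. An item withheld for evaluation is not reported here.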

Additional observations from a re-analysis of the deposited data

Results flagged for a closer look

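Among 27 groups of 4 mice (the 9 members in Clusters 6 and 10 at 7 d and 14 d, Mertk and Axl in Clusters 5 and 7 and Mertk in endothelial cells without injury, at 7 d and at 14 d), 1 had a mouse far from the others. Fcer1g in Clusters 6 and 10 at 14 d was at 3892 CPM in WT replicate 1, against 1533 to 1667 CPM in the other 3 mice. Chance alone marks about 1 in 20 such groups. The same mouse stood apart in other genes, which were looked at after seeing the data. Of 62 genes of the uptake list at 14 d, it lay far above the other 3 mice in 6 and far below them in 1, with 8044 normalized CPM of Tyrobp against 2557 to 2759, 10008 of C1qb against 2945 to 3664 and 11661 of C1qa against 4519 to 5035. Another mouse, cKO replicate 1, lay far above in 3. In cells without monocyte markers, WT replicate 1 was at 3678 CPM of Fcer1g.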

How the results depend on the processing

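Depth and the labels of the conditions limit these results: uninjured mice gave 477668 UMIs in Clusters 6 and 10, so a member at 0 could be at up to 6.28 CPM, WT at 1 d is 1 mouse, and small differences were not detectable. Why settings differed was not tested. At least 30 cells per mouse left out no mouse of Clusters 6 and 10. Leaving out cKO uninjured replicate 2, or the WT mouse at 1 d, made contrasts with those conditions inestimable, and several alternatives in Cluster 12 could not be fitted.

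At 1 d, 2 members and 23 genes were called. DESeq2 gave 1 and 94, no filter 153 genes, the replicate block 1 and 15, the animal number series 1 and 15, the conditions of the cell names 0 and 3, WT alone 1 and 11, cKO alone 0 and 0, Cluster 6 alone 0 and 3, Cluster 10 alone 1 and 10, and WT without the mice with other cell names 1 member (1 mouse per arm, so the spread comes from other groups). Leaving out 1 mouse at a time, 1 to 2 members and 7 to 36 genes were called.

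At 7 d, 0 members and 10 genes were called. DESeq2 gave 1 and 37, no filter 1 and 108, and the numbers of genes were 18 with the replicate block, 16 with the animal series, 2 with cell names, 4 in WT, 0 in cKO, 0 in Cluster 6 and 48 in Cluster 10. Leaving out 1 mouse at a time, 0 to 1 members and 4 to 36 genes were called.

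At 14 d, 0 members and 32 genes were called. DESeq2 gave 2 and 68, no filter 2 and 191, the replicate block 1 and 49, the animal series 1 and 109, and the numbers of genes were 21 with cell names, 20 in WT, 0 in cKO and 0 in Cluster 6. Leaving out 1 mouse at a time, 0 to 1 members and 0 to 56 genes were called.

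Between 7 d and 1 d, 2 members were called, 3 with no filter, 1 with DESeq2 and with the replicate block, 0 with cell names and in Cluster 6, and 0 to 2 with each mouse left out. Between cKO and WT (mean over injury), 0 genes were called, and 8 with no filter. The numbers of members called in endothelial cells, in Clusters 5 and 7, between 14 d and 7 d in Cluster 12 and between cKO and WT were 0 in all settings that could be fitted.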
